A study of Mus musculus with 9 samples.

Results

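Expression of 10 genes of megakaryocytes and platelets, Pf4, Itga2b, Itgb3, Gp1bb, Gp9, Gp5, Ppbp, Vwf, Plek and Rab27b, was examined in RNA sequencing of mouse LSKs. The genes were chosen by name from what they encode, with earlier results of these data known. All 10 were found among the 24060 named genes of the count table. LSKs (Lineage low, Sca1+, Kit+) are the bone marrow fraction that holds haematopoietic stem cells and multipotent progenitors. Donor marrow of 3 kinds was given to irradiated CD45.1 recipients, which received doxycycline for 3 months before the CD45.2 LSKs were sorted. The control group (3 libraries) is C57BL/6 marrow without a transgene. The NHD13 group (2 libraries) carries the NUP98-HOXD13 fusion, which the study drove from the Vav promoter throughout the blood system. The NHD13/MSI2 group (4 libraries) carries NHD13 together with an MSI2 transgene at Col1a1 that doxycycline switches on through a transactivator at ROSA26. All libraries are labelled C57BL/6, LSK and an age of 4 months. The library names hold the word dox in the NHD13/MSI2 group only. In the NHD13 group both library names hold wt and het, and only that of replicate 1 holds NHD13. In the control group the library name of replicate 1 holds the word Bulk and those of replicates 2 and 3 hold MPP and HSC. The lineage antibodies given in the study's methods include none against a megakaryocyte antigen.

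Megakaryocytes arise from haematopoietic stem and progenitor cells and shed platelets into the blood. Platelets catch on von Willebrand factor through the GPIb-IX-V complex, and they bind fibrinogen and each other through the integrin αIIbβ3. They also release granules that carry chemokines and von Willebrand factor. Some of these genes are switched on before a cell is a megakaryocyte: Itga2b (CD41) marks early and megakaryocyte-primed progenitors, and Vwf marks a platelet-biased part of the stem cells.

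The libraries held between 19242153 and 23013493 counts on named genes, and values are given as CPM, counts scaled to library size with TMM factors. A count of 0 allows up to 3 counts, which is 0.120 to 0.195 CPM in these libraries and covers counting error only. Msi2 itself was at 223 to 316 CPM in the control libraries, at 139 and 111 CPM in NHD13 and at 88.0, 77.1, 82.8 and 241 CPM in the 4 libraries labelled NHD13/MSI2. These counts do not check the label: reads of a transgene would be counted here only as far as they aligned to the mouse gene, which was not tested. Every direction given for the libraries labelled NHD13/MSI2 rests on that label. Hoxd13 had 0 counts in each control library and was at 0.648 to 1.13 CPM in the 6 others. Of the LSK markers, Kit was at 908 to 2254 CPM and Ly6a, which encodes Sca1, was at 48.3 to 375 CPM over the 9 libraries. The study's legend gives as many transplanted animals per group as there are libraries, and the labels do not name the mouse of each library. P-values measure the spread between these libraries, which may in part be technical. In such bulk samples, fewer cells of a type and less RNA per cell cannot be told apart.

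The promoters of a pair of neighbouring chemokine genes and of a surface receptor subunit from each complex are shown to let their start sites be compared. Windows from 250 bases before to 50 bases after the start were taken from RefSeq on GRCm38.p6, which had an entry for 7 of the 10 genes. Capitals mark motifs of 6 bases, searched on both strands. The GATA motif was the word GATA after an A or a T and before an A or a G, and the ETS motif was the word GGAA after an A or a C and before an A or a G. Each sequence is in the direction of its gene. The Pf4 window lies at chr5:90772185-90772484 on the plus strand and the Ppbp window at chr5:90768268-90768567 on the plus strand. The Gp9 window lies at chr6:87777820-87778119 on the plus strand and the Itga2b window at chr11:102469834-102470133 on the minus strand.
Pf4: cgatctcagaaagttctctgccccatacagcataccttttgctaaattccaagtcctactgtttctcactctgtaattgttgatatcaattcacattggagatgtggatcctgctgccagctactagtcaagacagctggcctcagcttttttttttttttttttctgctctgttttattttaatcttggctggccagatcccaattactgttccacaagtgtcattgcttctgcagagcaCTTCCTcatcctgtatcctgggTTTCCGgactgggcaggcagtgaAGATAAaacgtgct
Ppbp: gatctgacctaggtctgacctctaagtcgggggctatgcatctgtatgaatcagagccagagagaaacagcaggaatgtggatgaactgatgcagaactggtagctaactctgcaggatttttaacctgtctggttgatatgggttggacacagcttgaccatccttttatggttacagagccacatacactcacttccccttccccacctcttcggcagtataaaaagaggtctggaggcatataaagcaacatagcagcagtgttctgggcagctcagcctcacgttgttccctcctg
Gp9: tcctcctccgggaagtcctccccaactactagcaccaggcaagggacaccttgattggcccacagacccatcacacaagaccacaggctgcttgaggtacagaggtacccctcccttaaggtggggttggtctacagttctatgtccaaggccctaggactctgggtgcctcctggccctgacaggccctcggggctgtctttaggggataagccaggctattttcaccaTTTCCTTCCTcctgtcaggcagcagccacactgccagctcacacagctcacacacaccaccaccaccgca
Itga2b: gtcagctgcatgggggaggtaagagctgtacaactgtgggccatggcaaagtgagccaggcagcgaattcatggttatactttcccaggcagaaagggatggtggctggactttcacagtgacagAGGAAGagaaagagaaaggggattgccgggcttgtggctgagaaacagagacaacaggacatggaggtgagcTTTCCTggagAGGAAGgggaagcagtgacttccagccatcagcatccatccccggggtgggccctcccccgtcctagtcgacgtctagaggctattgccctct
The Pf4 window holds a GATA motif that begins 37 bases after the start, and ETS motifs on the opposite strand at −9 and 14. Gp9 has overlapping ETS motifs on the opposite strand at −20 and −16, and Itga2b has ETS motifs at −125, −53 and −43. Neither motif was found in the Ppbp window, although the Ppbp and Pf4 genes are 2371 bp apart. Over the 7 windows, a GATA motif was found in 3 (42.9%, against 29.8% of 32817 RefSeq windows of the same length), an ETS motif in 6 (85.7%, against 64.7%) and both in 3 (42.9%, against 19.1%). The matches describe letters only, and binding was not measured.

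The 10 genes differed widely in level. Per kilobase of the longest coding transcript, Plek stood highest in the control libraries, with a mean of 115 CPM per kb, followed by Pf4 (32.8), Itga2b (24.0) and Gp9 (13.8 CPM per kb). Itgb3, Vwf and Rab27b were close together at 3.99, 3.90 and 3.48 CPM per kb, with library values that overlapped. Ppbp was at 1.63, Gp5 at 0.330 and Gp1bb at 0.0550 CPM per kb. Pf4 came before Plek in the other groups. The means of Pf4 and Plek were 260 and 60.3 CPM per kb in NHD13 and 14.4 and 12.3 CPM per kb in the libraries labelled NHD13/MSI2. In the last group the library values of Pf4 (2.76 to 21.5 CPM per kb) and Plek (10.2 to 16.3 CPM per kb) overlapped, so their order is not settled there.

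**Figure D1:**
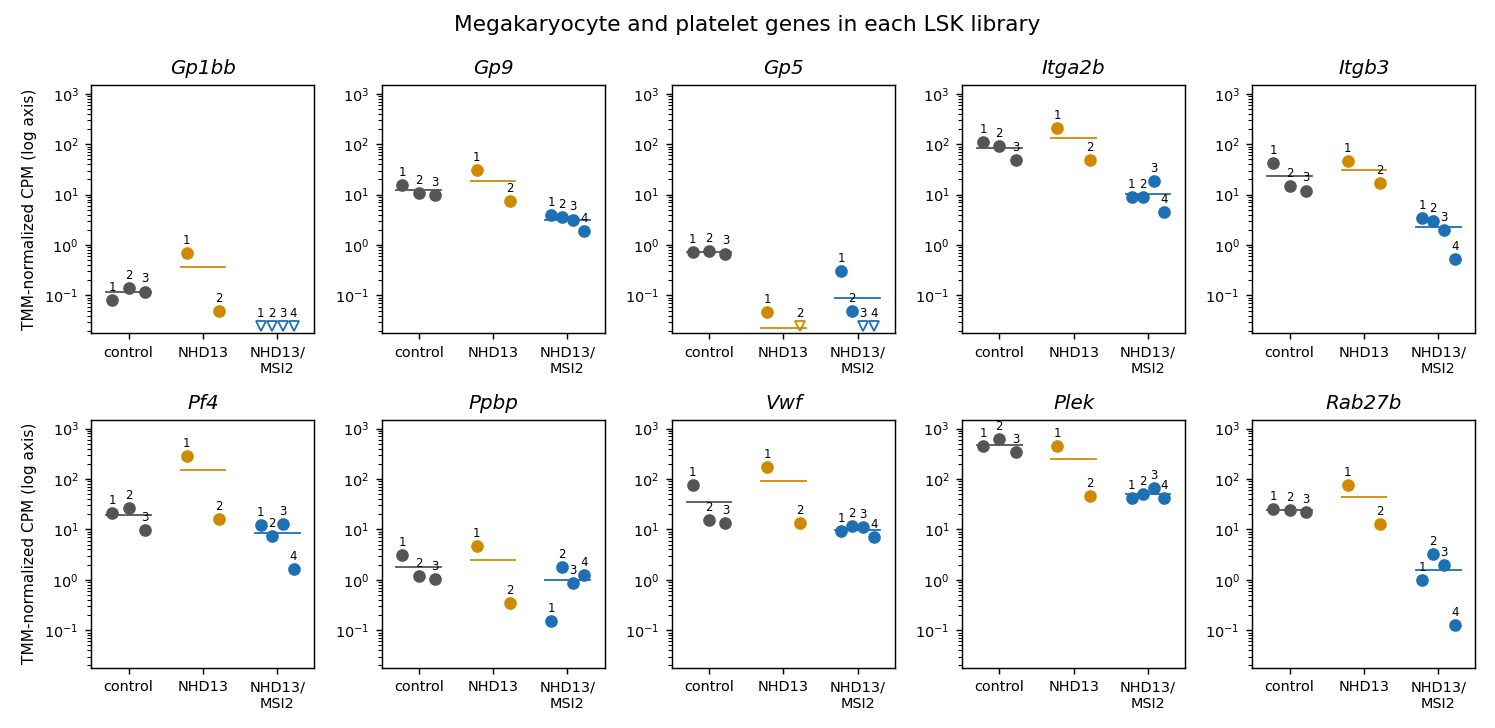
TMM-normalized CPM (log axis) of the 10 genes in each library, with 1 panel for each gene, the group on the x axis and the replicate number beside each point. Horizontal lines are group means and open triangles at the bottom are libraries with 0 counts. In 8 panels each library labelled NHD13/MSI2 lies below each control library, and NHD13 replicate 1 lies above NHD13 replicate 2 in all 10.

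The receptor for von Willebrand factor was represented in the set by Gp1bb, Gp9 and Gp5, and the RNA of Gp1bb and Gp5 was scarce. Gp1bb (chr16:18620317-18622403, minus strand), the β chain of GPIb, had 2, 3 and 3 counts in the control libraries, 15 and 1 counts in NHD13 and 0 counts in each library labelled NHD13/MSI2. It did not pass the filter on low counts and was not tested. Its exons overlap those of Sept5 and Gm49601 on the same strand, so its few reads are uncertain. Gp9 (chr6:87778072-87779768, plus strand), which is needed to bring the complex to the surface, was at 15.8, 10.9 and 9.71 CPM in the control libraries. It was at 30.7 and 7.46 CPM in NHD13 and at 3.88, 3.54, 3.21 and 1.88 CPM in the libraries labelled NHD13/MSI2. The last 4 lie below all the others. The log2 fold change of Gp9 was −2.60 ± 0.50 (standard error) over NHD13 and −1.95 ± 0.46 over control, and neither passed the threshold of 0.01 (adjusted p = 0.0132 and 0.0155, quasi-likelihood test of edgeR, adjusted over all tested genes by the Benjamini-Hochberg procedure, as for every adjusted p here). Without NHD13 replicate 1 the first was −1.25 (adjusted p = 0.199).

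Gp5 (chr16:30307685-30310779, minus strand), the subunit of the complex that thrombin cleaves, followed another order. It had 18, 16 and 17 counts in the control libraries, 1 and 0 counts in NHD13, and 6, 1, 0 and 0 counts in the libraries labelled NHD13/MSI2. All 3 control libraries therefore stood above the 6 others, and NHD13 replicate 1, in which most of these genes were highest, had a single count. The log2 fold change of Gp5 was −4.63 ± 1.70 in NHD13 over control (adjusted p = 0.245) and −2.92 ± 1.13 in the libraries labelled NHD13/MSI2 over control (adjusted p = 0.103). Neither passed the threshold.

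Both chains of the fibrinogen receptor were lower in the libraries labelled NHD13/MSI2 than in control. Itga2b (chr11:102453297-102470122, minus strand), the αIIb chain, was at 109, 90.9 and 47.8 CPM in the control libraries. It was at 212 and 49.6 CPM in NHD13 and at 9.10, 9.07, 18.4 and 4.48 CPM in the libraries labelled NHD13/MSI2. The highest of the last 4 lies below the lowest of the 5 others. Itga2b was 8.0-fold lower than in control (log2 fold change −3.00 ± 0.57, adjusted p = 0.00542) and 12.7-fold lower than in NHD13 (−3.66 ± 0.61, adjusted p = 0.00734). Without NHD13 replicate 1 the log2 fold change over NHD13 was −2.27 (adjusted p = 0.0784). Itgb3 (chr11:104608000-104670476, plus strand) encodes β3, which also pairs with the αv chain in other cells. Its level was 42.7, 14.6 and 12.1 CPM in the control libraries, 45.7 and 17.1 CPM in NHD13, and 3.52, 2.94, 1.99 and 0.519 CPM in the libraries labelled NHD13/MSI2. Again each library labelled NHD13/MSI2 lies below the 5 others, while control and NHD13 overlap. Itgb3 was 10.2-fold lower than in control (−3.35 ± 0.65, adjusted p = 0.00627), whereas the difference from NHD13 did not pass the threshold (−3.79 ± 0.70, adjusted p = 0.0109).

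The 3 granule proteins were highest in a single library, NHD13 replicate 1. Pf4 (chr5:90772435-90773383, plus strand), the chemokine platelet factor 4 of the α-granules, was at 21.4, 26.9 and 9.55 CPM in the control libraries and at 12.2, 7.43, 12.7 and 1.62 CPM in the libraries labelled NHD13/MSI2. In NHD13 it was at 290 CPM in replicate 1 and 16.1 CPM in replicate 2. Replicate 1 stands far above each of the other 8 libraries, and replicate 2 lies within the range of the controls. The log2 fold change of Pf4 over NHD13 was −4.16 ± 0.96 (adjusted p = 0.0284) with both NHD13 libraries and −0.92 (adjusted p = 0.694) without replicate 1. Against control it was −1.18 ± 0.86 (adjusted p = 0.389), and the ranges of those groups overlap. Ppbp (chr5:90768518-90770063, plus strand), the precursor of a platelet chemokine, was at 3.07, 1.19 and 1.04 CPM in the control libraries. It was at 4.69 and 0.346 CPM in NHD13 and at 0.155, 1.79, 0.859 and 1.23 CPM in the libraries labelled NHD13/MSI2. The 3 groups overlap in Ppbp, and no contrast passed (adjusted p = 0.519 for NHD13/MSI2 over NHD13, 0.602 for NHD13/MSI2 over control and 0.944 for NHD13 over control).

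Vwf (chr6:125546774-125686679, plus strand), the adhesive protein that GPIb-IX-V binds, had 1 high library in each of the first 2 groups. It was at 75.0, 15.2 and 13.2 CPM in the control libraries and at 169 and 13.3 CPM in NHD13. The libraries labelled NHD13/MSI2 were close together at 9.31, 11.8, 11.3 and 7.20 CPM, all below each of the 5 others. The gap to control replicates 2 and 3 and to NHD13 replicate 2 is small. The log2 fold change was −1.80 ± 0.80 over control (adjusted p = 0.155), or −0.52 (adjusted p = 0.714) without control replicate 1, and −3.20 ± 0.88 over NHD13 (adjusted p = 0.0549). Without NHD13 replicate 1 the latter was −0.43 (adjusted p = 0.874).

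Plek and Rab27b, which act inside the platelet, were both lower in the libraries labelled NHD13/MSI2 than in control. Plek (chr11:16971206-17052381, minus strand) encodes pleckstrin, the main substrate of protein kinase C in platelets, and is also expressed in other white blood cells. It was at 452, 611 and 350 CPM in the control libraries, at 449 and 45.3 CPM in NHD13 and at 41.8, 50.7, 66.8 and 41.8 CPM in the libraries labelled NHD13/MSI2. NHD13 replicate 1 lies among the controls and replicate 2 among the libraries labelled NHD13/MSI2. Plek was 9.36-fold lower in the latter than in control (log2 fold change −3.23 ± 0.60, adjusted p = 0.00511). Over NHD13 its log2 fold change was −2.30 ± 0.63 (adjusted p = 0.0558) and, without NHD13 replicate 1, 0.15 (adjusted p = 0.903). With NHD13 replicate 2 as the lone NHD13 library, Plek was the only one of the 10 genes called between NHD13 and control (−3.38, adjusted p = 0.00745). Its exons overlap those of Cnrip1 on the opposite strand, and whether reads were counted by strand is not given in the sources used here.

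Rab27b, a small GTPase of chromosome 18 that is needed for the packing and release of platelet granules, showed the widest difference of the tested genes of the set against both groups. It was at 25.1, 24.4 and 22.3 CPM in the control libraries, with a spread of 1.44 CPM (SD, n = 3). It was at 74.5 and 12.7 CPM in NHD13 and at 0.982, 3.24, 1.99 and 0.130 CPM in the libraries labelled NHD13/MSI2. The last 4 lie below the 5 others. Rab27b was 14.8-fold lower than in control (log2 fold change −3.89 ± 0.78, adjusted p = 0.00690) and 26.9-fold lower than in NHD13 (−4.75 ± 0.83, adjusted p = 0.00895). Without NHD13 replicate 1 the difference from NHD13 was −2.97 (adjusted p = 0.0955).

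The question of the series is what MSI2 adds to NHD13 in these cells. Between the libraries labelled NHD13/MSI2 and NHD13, 2 of the 9 tested genes were called lower (Itga2b and Rab27b), where 2.58% of all tested genes were called lower, and 7 were at an unadjusted p under 0.05, as were 21.7% of all tested genes. Between the libraries labelled NHD13/MSI2 and control, 4 were called lower (Itga2b, Itgb3, Plek and Rab27b), where 6.55% of all tested genes were called lower. Between NHD13 and control edgeR called none of the 9, where 1.03% of all tested genes were called in either direction. In that contrast 2 genes, Pf4 and Gp5, were at an unadjusted p under 0.05, as were 13.5% of all tested genes, and DESeq2 called none. With all 10 genes, 7 were lower in every library labelled NHD13/MSI2 than in every NHD13 library (Gp1bb, Gp9, Itga2b, Itgb3, Pf4, Vwf and Rab27b), which was so for 16.9% of all tested genes. Against control the same held for 8 genes, namely those other than Pf4 and Ppbp, and for 20.4% of all tested genes. Gp1bb is among both although it was not tested. Its 0 counts allow up to 3, and it had 1 count in NHD13 replicate 2 and 2, 3 and 3 counts in control. The contrasts share libraries and are not independent of each other, and the set was chosen with earlier results of these data known.

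The calls depended on single libraries. So did the number of all tested genes called, whose ranges over these fits are given in the last section. Against NHD13, no gene of the set was called without NHD13 replicate 1 and 5 were called without NHD13 replicate 2 (Gp9, Itga2b, Pf4, Plek and Rab27b). No gene was called in that contrast without any 1 of the 3 control libraries, which enter through the shared spread, or without replicate 1 or 2 of NHD13/MSI2, 1 was called without replicate 3 and 3 without replicate 4. Against control, no gene was called without any 1 of the 3 control libraries or without NHD13/MSI2 replicate 1, 1 without replicate 2 or 3, 4 without replicate 4, and 5 without either NHD13 library. The log2 fold changes over control stayed negative for the 9 tested genes in each of these fits. The size moved most for Gp5, from −2.92 with all libraries to as low as −4.97. Without control replicate 1 the log2 fold changes over control were −0.14 (adjusted p = 0.955) for Ppbp, −0.52 (adjusted p = 0.714) for Vwf and −2.56 (adjusted p = 0.0283) for Itgb3.

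**Figure D2:**
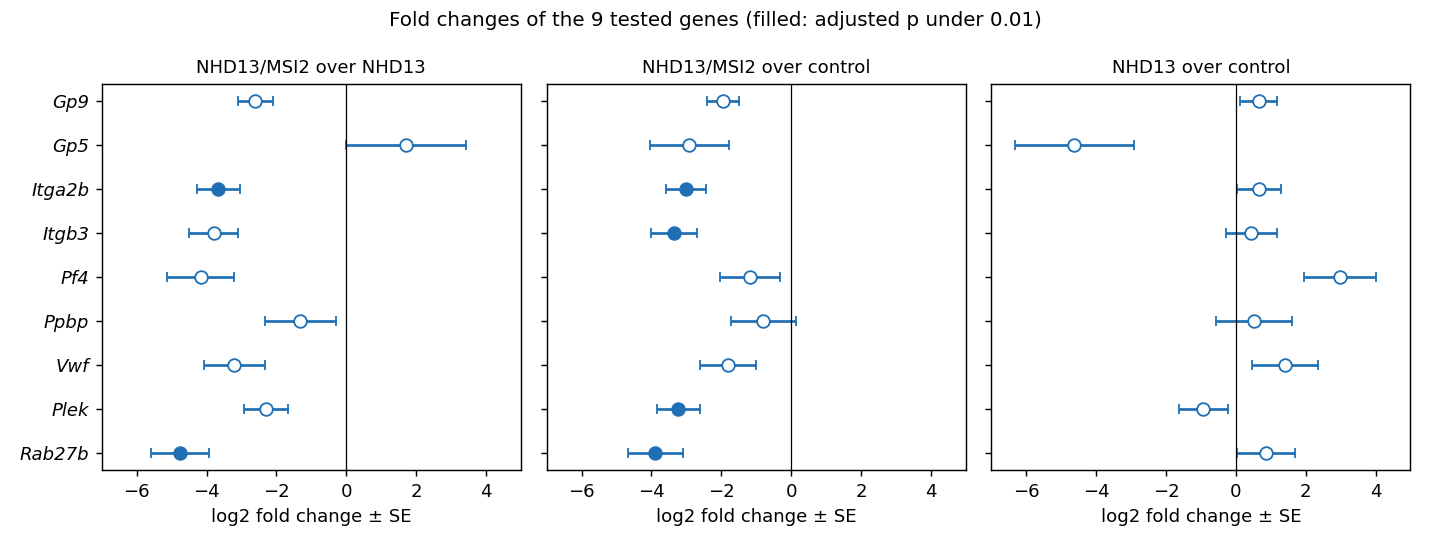
Log2 fold changes (x axis) of the 9 tested genes in the 3 contrasts, 1 panel for each, with bars of 1 standard error; filled points passed an adjusted p of 0.01. Itga2b and Rab27b are filled in NHD13/MSI2 over NHD13, Itga2b, Itgb3, Plek and Rab27b are filled in NHD13/MSI2 over control, and none is filled in NHD13 over control.

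The pair of NHD13 libraries differed more in these genes than in most others. NHD13 replicate 1 was higher than replicate 2 by a log2 difference (prior count 2) of 4.16 in Pf4, 3.66 in Vwf, 3.44 in Ppbp and 3.31 in Plek. Those are the 3 granule proteins and pleckstrin. The difference was 2.54 in Rab27b, 2.44 in Gp1bb, 2.09 in Itga2b, 2.03 in Gp9, 1.41 in Itgb3 and 0.57 in Gp5. Gp1bb, which was not tested, had 15 and 1 counts in these libraries. Of the 10 genes, 9 were at least 1 log2 unit higher in replicate 1, as were 14.4% of all tested genes, and 8 were at least 2 log2 units higher, as were 6.51% of all tested genes. The median difference was 2.49 for the 10 genes, 0.93 for the 83 other megakaryocyte genes tested and 0.030 for all tested genes. With 1 library on each side, this difference has no replicate check and no test. The summed level of the 10 genes was 1276 CPM in NHD13 replicate 1 and 162 CPM in replicate 2. It was 467 to 796 CPM in the control libraries and 58.9 to 117 CPM in the libraries labelled NHD13/MSI2, so NHD13 replicate 1 lay above and replicate 2 below all controls, and both lay above the libraries labelled NHD13/MSI2. Without Plek, the most abundant gene, the sums were 827 and 117 CPM in NHD13, 116 to 293 CPM in control and 17.1 to 50.4 CPM in the libraries labelled NHD13/MSI2. NHD13 replicate 2 then lay at the lower end of the controls.

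**Figure D3:**
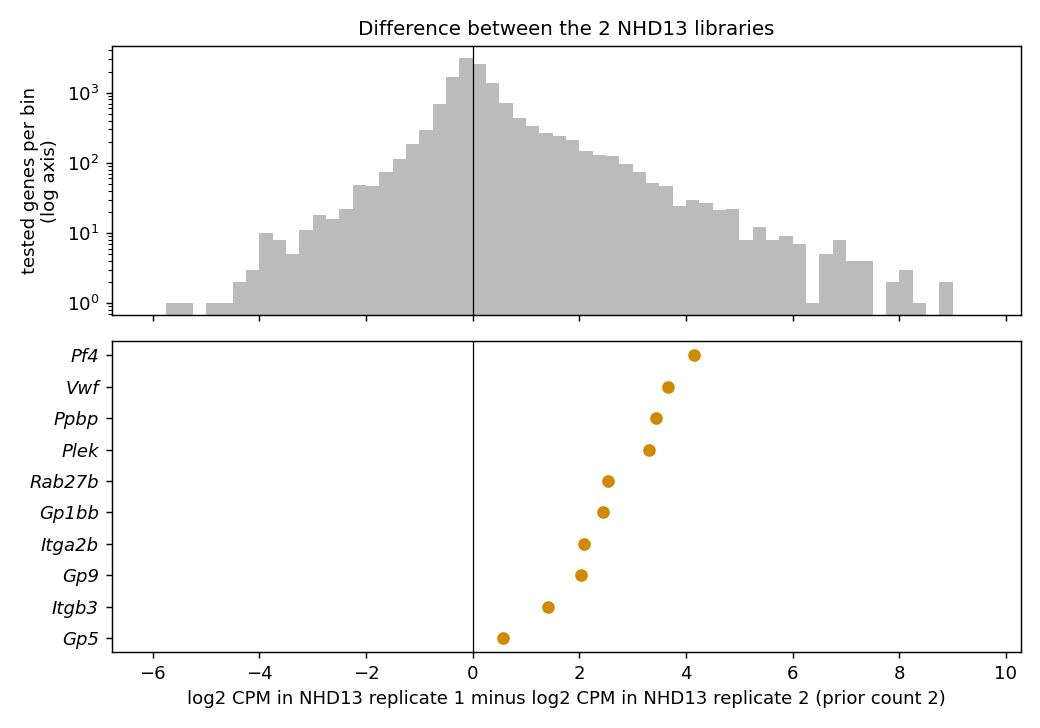
Difference between NHD13 replicate 1 and replicate 2 in log2 CPM (x axis, prior count 2) for all tested genes as a histogram (number of genes, log axis) and for the 10 genes as named marks. Each of the 10 marks lies to the right of 0, from 0.57 for Gp5 to 4.16 for Pf4, where the median of all tested genes is 0.030.

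Other groups had libraries that stood apart in the set as well. Control replicate 1 was the highest control library in 6 genes (Gp9, Itga2b, Itgb3, Ppbp, Vwf and Rab27b), where 35.5% of all tested genes were highest in it. The gap was widest in Vwf and Itgb3, at 75.0 CPM against 15.2 and 13.2 CPM and at 42.7 CPM against 14.6 and 12.1 CPM. NHD13/MSI2 replicate 4 was the lowest of its group in 6 genes (Gp9, Itga2b, Itgb3, Pf4, Vwf and Rab27b), where 37.6% of all tested genes were lowest in it. That library stood apart over all genes as well, with a chi-square per gene of 382 to 409 against replicates 1 to 3, which differed from each other by 18.2 to 31.3. It is also the library with the high Msi2 count.

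**Figure D4:**
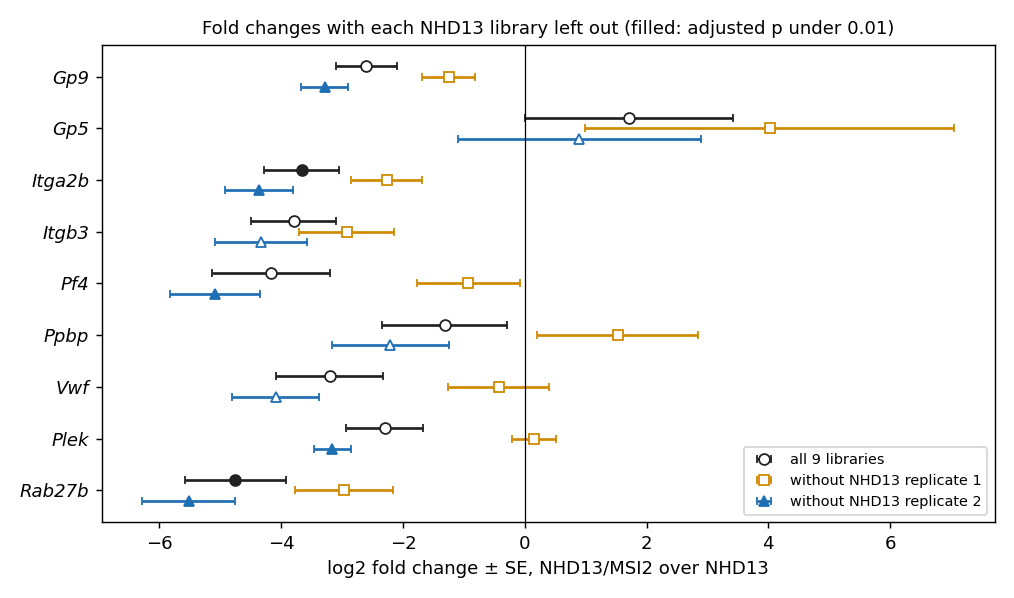
Log2 fold change of NHD13/MSI2 over NHD13 (x axis) for the 9 tested genes with both NHD13 libraries, without replicate 1 and without replicate 2, with bars of 1 standard error; filled points passed an adjusted p of 0.01. Without replicate 1 no point is filled and Plek moves to 0.15, and without replicate 2 Gp9, Itga2b, Pf4, Plek and Rab27b are filled.

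A wider list of 85 megakaryocyte and platelet genes outside the set was read from the same fit, and 83 of them were tested. Against NHD13, 8 were called, each of them lower (all tested genes 2.58% lower), and the median log2 fold change of the 83 genes was 0.039 (all tested genes −0.028). Against control, 11 were called lower and 9 higher (all tested genes 6.55% lower and 4.49% higher), with a median of −0.17 (all tested genes −0.011). Between NHD13 and control only F13a1 was called, and it was higher (all tested genes 1.03% in either direction). Every library labelled NHD13/MSI2 lay below every NHD13 library in 21 of the 83 genes (25.3%, against 16.9% of all tested genes) and below every control library in 23 (27.7%, against 20.4%). They lay above every NHD13 library in 15 genes (18.1%, against 13%) and above every control library in 18 (21.7%, against 15.3%). NHD13 replicate 1 exceeded replicate 2 by at least 1 log2 unit in 40 of the 83 genes (all tested genes 14.4%). It did so by at least 2 in 15 (all tested genes 6.51%).

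By role, of 20 receptors and surface proteins tested, 3 were lower against NHD13 and 5 against control, and 1 was higher against control. The medians were −1.53 and −1.39. Of all tested genes, 2.58% were called lower against NHD13, and 6.55% lower and 4.49% higher against control. P2ry1, an ADP receptor of platelets, was at 73.6 and 19.2 CPM in NHD13, at 3.76 to 5.93 CPM in control and at 1.09, 1.99, 2.49 and 0 CPM in the libraries labelled NHD13/MSI2. It was called lower against NHD13 (−5.02 ± 0.88, adjusted p = 0.00910), and both NHD13 libraries stood above the controls. Ptgir, the prostacyclin receptor, went the other way, with 9.35 to 10.7 CPM in control, 38.1 and 14.9 CPM in NHD13 and 29.2 to 78.3 CPM in the libraries labelled NHD13/MSI2 (2.30 ± 0.42 over control, adjusted p = 0.00460). Gp6, the collagen receptor, had 0 counts in every library.

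Genes of granule cargo and granule formation moved both ways. Of the 23 tested, 2 were lower against NHD13 (all tested genes 2.58%). Against control 1 was lower (all tested genes 6.55%) and 4 were higher (all tested genes 4.49%). Mmrn1, a large adhesive protein of the α-granules, was at 190 to 433 CPM in control, at 715 and 100 CPM in NHD13 and at 1.05 to 7.72 CPM in the libraries labelled NHD13/MSI2 (−5.67 ± 0.81 over control, adjusted p = 0.00131, and −6.15 ± 0.85 over NHD13, adjusted p = 0.00347). Clu, clusterin, was at 189 and 19.5 CPM in NHD13, at 4.36 to 10.5 CPM in control and at 0.249 to 1.19 CPM in the libraries labelled NHD13/MSI2, where its log2 fold change over NHD13 was −6.92 ± 0.86 (adjusted p = 0.00231). Both share with Pf4 a higher value in NHD13 replicate 1 than in any other library. Selp, which encodes P-selectin and is also used by endothelium, was higher, with 649 to 842 CPM in the libraries labelled NHD13/MSI2, 314 and 111 CPM in NHD13 and 67.4 to 159 CPM in control (2.53 ± 0.42 over control, adjusted p = 0.00268). F13a1, the A chain of clotting factor XIII, which monocytes also express, was at 20.9 to 40.0 CPM in control, at 2239 and 2974 CPM in NHD13 and at 5608 to 7772 CPM in the libraries labelled NHD13/MSI2. Its log2 fold change over control was 7.75 ± 0.35 (adjusted p = 4.6e-06) in the libraries labelled NHD13/MSI2 and 6.39 ± 0.34 (adjusted p = 3.1e-05) in NHD13. In F13a1 NHD13 replicate 2 was higher than replicate 1, unlike in the 10 genes of the set.

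Of 15 transcription factors of the lineage tested, 1 was lower against NHD13 (all tested genes 2.58%). Against control 3 were lower (all tested genes 6.55%) and 1 was higher (all tested genes 4.49%). Tal1, which is needed for the megakaryocytic and erythroid lineages, was at 16.3, 23.1 and 19.9 CPM in control, at 13.6 and 7.8 CPM in NHD13 and at 1.71, 0.997, 1.72 and 0.519 CPM in the libraries labelled NHD13/MSI2 (−3.98 ± 0.41 over control, adjusted p = 0.000277, and −3.09 ± 0.43 over NHD13, adjusted p = 0.00367). All 4 of the latter lie below the 5 others. Of 13 signalling genes tested, 2 were lower in both contrasts and 1 was higher against control. Of 12 cytoskeletal genes tested, 2 were higher against control.

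**Figure D5:**
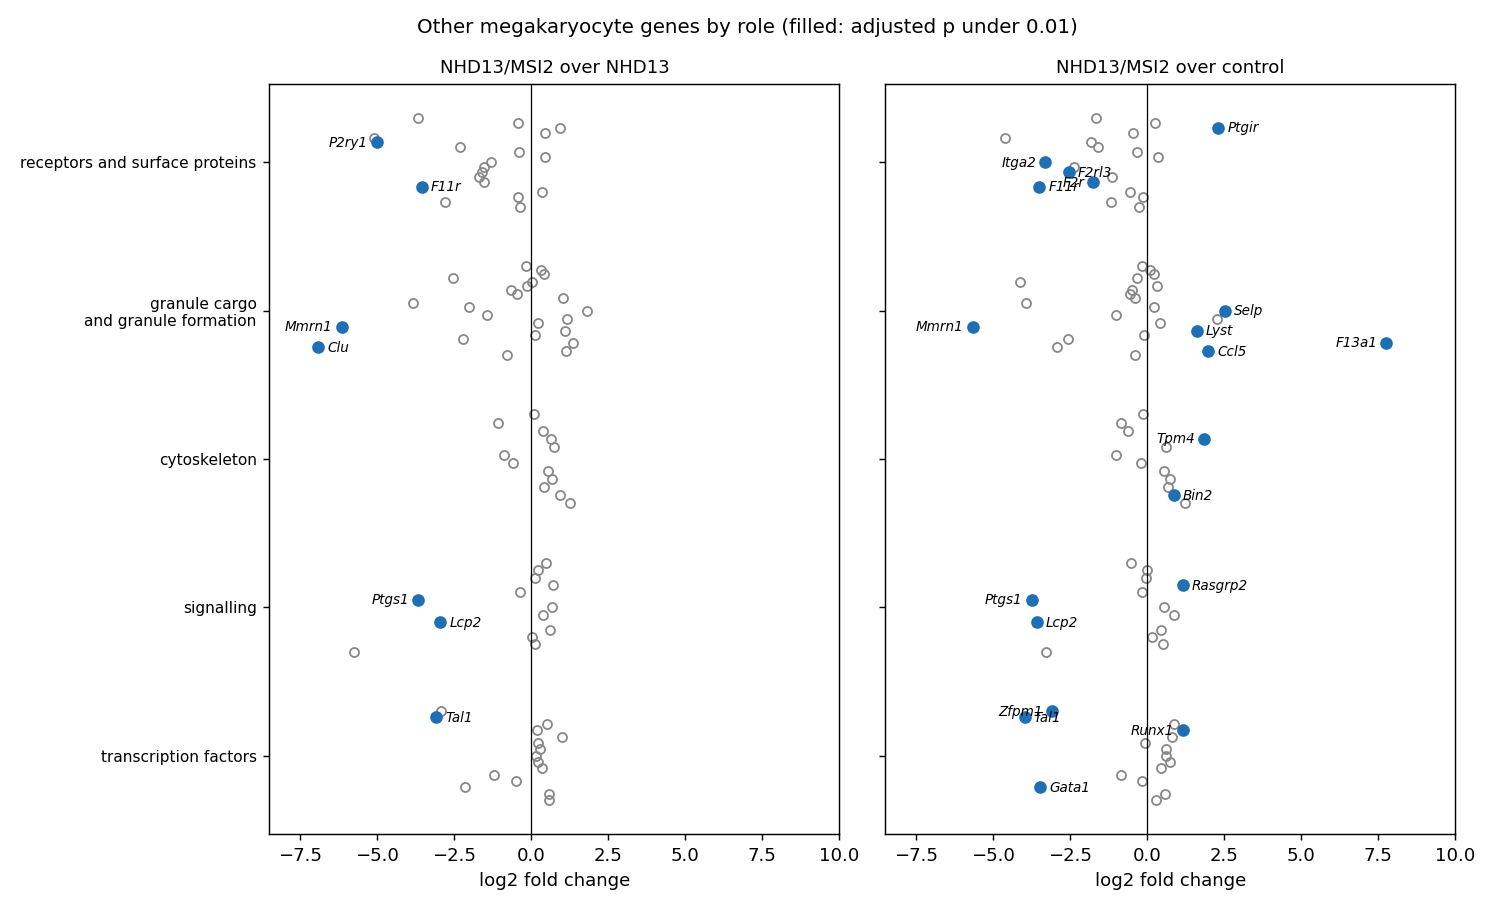
Log2 fold changes (x axis) of 82 of the 83 other megakaryocyte genes tested, grouped by role on the y axis, in NHD13/MSI2 over NHD13 (left) and over control (right); filled, named points passed an adjusted p of 0.01. Filled points lie only to the left of 0 in the left panel (7 genes) and on both sides in the right panel (10 lower and 9 higher).

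Markers of other cells that an LSK sort could hold were read beside these results, and their part in them was not tested. The summed level of 11 erythroid markers was 112 to 237 CPM in control, 29.6 and 12 CPM in NHD13 and 0.997 to 21.0 CPM in the libraries labelled NHD13/MSI2, and Hba-a1 and Hbb-b2 were at 0 in every library. The 6 mast cell and basophil markers summed to 25.7 to 75.0 CPM in control, 13.7 to 22.2 CPM in NHD13 and 6.29 to 14.0 CPM in the libraries labelled NHD13/MSI2. The ranges of both sums in the libraries labelled NHD13/MSI2 overlapped those of NHD13, and neither sum was highest in NHD13 replicate 1. Most of the erythroid sum in control was Car1, at 96.2, 185 and 77.6 CPM. Of the markers in these lists only Epor was highest in NHD13 replicate 1, at 8.69 CPM against 3.12 to 5.23 CPM in control. The 10 neutrophil markers summed to 2463 to 4498 CPM in control and 3428 to 4700 CPM in NHD13. They summed to 9077 to 15216 CPM in the libraries labelled NHD13/MSI2. Mpo, the 1 marker of the list called higher over control, was most of each sum in the latter 2 groups. In control replicates 1 to 3 Mpo was at 1861, 1589 and 1195 CPM, against sums of 3125, 4498 and 2463 CPM. Of the 10 neutrophil markers 7 had a negative log2 fold change over control, with a median of −1.04, and none of the 7 was called. The 6 B cell markers summed to 45.7 to 57.5, 81.8 to 127 and 262 to 447 CPM in the same order. Most of each sum was Cd79a and Cd79b. Cd79a, Cd79b and Pax5 were called higher over control. Ebf1 and Ms4a1 had negative log2 fold changes over control (−2.53 and −0.080), and neither was called. The 6 T cell markers summed to 69.8 CPM in NHD13 replicate 1 and to 1.04 to 11.1 CPM in the other 8 libraries. Of the 69.8 CPM, 62.9 CPM were Trat1, while Cd3d, Cd3e and Cd3g were at 0.184, 0.322 and 0.690 CPM there and Cd4 was at 4.32 CPM, against 11 CPM in NHD13 replicate 2.

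Endothelial cells share Vwf, Selp and Mmrn1 with megakaryocytes. The 10 endothelial markers summed to 378 to 560 CPM in control and 486 to 585 CPM in NHD13. In the libraries labelled NHD13/MSI2 they summed to 567 to 751 CPM. Pecam1 was most of the sum in NHD13 and in those libraries. It was at 150 to 173 CPM in control and at 437 to 558 CPM in the libraries labelled NHD13/MSI2. Tek, Tie1, Emcn and Esam, which stem cells also express, were called lower in the libraries labelled NHD13/MSI2 against both groups, Egfl7 was called higher against NHD13 and Pecam1 was called higher against control. Cdh5, a defining marker of endothelium, was at no more than 0.440 CPM and Ptprb was at 0 counts in every library. Of the 6 LSK markers, Slamf1 was called lower in the libraries labelled NHD13/MSI2 against both groups, and Cd34 and Flt3 were called lower against control. The LSK markers summed to 4270 to 4710 CPM in control, 2506 to 2736 CPM in NHD13 and 2281 to 3002 CPM in the libraries labelled NHD13/MSI2. Library sex also differed: Xist reached 888 and 866 CPM in control replicates 1 and 3 but no more than 2.32 CPM in the 7 others.

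The genes with the profile most like a member over the 9 libraries were found by the mean absolute difference in the Z-score of log2 CPM, over 10972 tested genes with a mean of at least 50 counts. For Itga2b they were Tuba8 (0.104), Plxdc2 (0.158) and Xlr4a (0.166). Within the set, Gp9 (0.210), Rab27b (0.216) and Itgb3 (0.281) were the closest to Itga2b. For Pf4 they were Treml1 (0.141), Fbxo9 (0.159) and Serpinb6a (0.177). Treml1 encodes a receptor of the α-granules of platelets and megakaryocytes. It was at 2.74, 1.90 and 0.640 CPM in control, at 13 and 1.48 CPM in NHD13 and at 0.724, 0.449, 0.950 and 0.0649 CPM in the libraries labelled NHD13/MSI2, and NHD13 replicate 1 was again far above the other 8. The Pf4 profile is one that 1 or 2 libraries dominate. In the Itga2b profile every library labelled NHD13/MSI2 lies below every other library. Both searches are descriptions with no test.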

How the data were processed

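Libraries of RNA from sorted LSKs were sequenced by the study. For each of the 9 libraries the authors deposited raw counts by gene symbol, neither normalized nor pooled. The submitters' processing notes name STAR, HTSeq, DESeq and mm9, without versions. From the March genes onward the deposited names stood 2 rows above their counts. Therefore 11942 names were moved down, 13 rows (0.0253% to 0.0323% of a library) were left without a name, and 24060 of 24073 rows were used. As deposited, 2 rows without a name held 0.00305% to 0.00816%. With the move, Xist had 21712, 49 and 21664 counts in control replicates 1 to 3 and mirrored Eif2s3y, whereas it had 0 counts in each without it. No column belonged to other samples.

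Counts were filtered with filterByExpr (13355 genes tested), scaled by TMM and fitted with edgeR 4.0.16 (quasi-likelihood) in R 4.3.3, with the 9 libraries in 1 model, and an adjusted p under 0.01 was a call. Standard errors are on the log2 scale. Alternatives included DESeq2 1.42.0, no filter, only the groups compared, an adjusted p under 0.05, the replicate number as a block, the names as deposited and each library left out. The model was tested on simulated data. Groups followed the labels. Replicate pairs differed beyond counting noise (chi-square per gene 18.2 to 409, of which pairs without NHD13/MSI2 replicate 4 gave 18.2 to 73.4).

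The genes and lists were chosen with earlier results of these data known. Named beside the 10 genes were, in each contrast, up to 3 called megakaryocyte genes outside the set per direction, by size of change and with 50 or more counts on average, and the 3 genes most like Itga2b and Pf4. Positions and lengths are from GENCODE M21 on GRCm38, which is not the authors' build, and describe the genes only. Promoter sequences are from RefSeq (GRCm38.p6). The values of 1 gene that this rule names are not reported here. The mouse phenotypes and human data of the study were not analysed here.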

Additional observations from a re-analysis of the deposited data

Results flagged for a closer look

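Gp5 was flagged because 1 library of 4 stood apart. NHD13/MSI2 replicate 1 was at 0.310 CPM (6 counts) and the other 3 libraries of that group had 1, 0 and 0 counts. The gap to the nearest library, divided by the range of the group, exceeded Dixon's 95% critical value for 4 samples. The 10 genes were tested in this group of 4, and chance flags about 1 in 20.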

How the results depend on the processing

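Each alternative changed 1 choice. Counts of genes called moved by more than 1.5 times as follows, in the order NHD13/MSI2 over NHD13, then NHD13/MSI2 over control, then NHD13 over control (423, 1474 and 138 of all genes in the fit reported). DESeq2 called 1286, 2589 and 594 of all genes, 7 of the set over NHD13, and 24 of the other megakaryocyte genes over NHD13 and 4 in NHD13 over control. An adjusted p under 0.05 gave 1177, 2746 and 386 of all genes, 5 of the set over NHD13, and 22 and 4 other megakaryocyte genes in the same contrasts. With only the groups compared, 28 of all genes, 0 of the set and 0 other megakaryocyte genes were called over NHD13, and 83 of all genes in NHD13 over control. With no filter, 4 of the set were called over NHD13. With the names as deposited, 1 of the set was called over NHD13 and 2 over control, and 5, 13 and 2 other megakaryocyte genes in the 3 contrasts. The log2 fold changes of Ppbp (−0.032) and Rab27b (−0.53) in NHD13 over control were then reversed, since those names stood on the counts of other genes.

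With each library left out in turn, 130 to 650, 646 to 2063 and 38 to 254 of all genes were called, 0 to 5, 0 to 5 and 0 to 1 of the set, and 3 to 13, 10 to 25 and 1 to 2 other megakaryocyte genes. A lone NHD13 library is assumed there to vary like the other groups. Directions reversed in some of these fits over NHD13 for Gp5 (−0.33 to 4.02), Ppbp (−2.21 to 1.53) and Plek (−3.16 to 0.15). They reversed in NHD13 over control for Gp9 (−0.70 to 1.34), Itga2b (−0.73 to 1.36), Itgb3 (−0.43 to 1.24), Pf4 (−0.26 to 3.91), Ppbp (−2.33 to 1.41), Vwf (−1.37 to 2.69) and Rab27b (−0.92 to 1.64).

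The replicate numbers did not pair the libraries, since the deviations of libraries with the same number correlated by −0.072 to 0.19. With the replicate block, 203 of all genes, 1 of the set and 4 other megakaryocyte genes were called over NHD13, and 1 of the set over control. The 1 gene was Itgb3 in both contrasts (adjusted p = 0.00719 and 0.00162), and the calls of Itga2b (adjusted p = 0.0400) and Rab27b (adjusted p = 0.0372) over NHD13 were lost. Apart from the construction of the alternatives (fewer libraries, other names), the cause of these changes was not tested. Depth limits Gp1bb and Gp5, whose libraries had at most 18 counts.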
